A study of Mus musculus with 6 samples.

Results

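This account covers 41 mouse genes listed under mucin glycosylation: 4 membrane mucins and 37 enzymes, counting the chaperone of 1 of them. The enzymes start, branch, extend, fucosylate, sialylate or sulfate glycans, not all of them on mucins. The 41 genes were taken by name from 54838 Ensembl gene IDs in each count file. All 41 names matched an ID, and 37 had enough reads to be tested. The genes were followed in intestinal stem cells given INT-777, a synthetic bile acid derivative that activates the bile acid receptor TGR5, or given its solvent DMSO, and the study asked which genes respond to that stimulation. The INT-777 group held 3 libraries (30 µM, days 1, 2 and 3) and the DMSO group 3 libraries (days 1, 2 and 3). All 6 came from Lgr5-eGFP-IRES-CreERT2 mice (strain B6.129P2-Lgr5tm1(cre/ERT2)Cle/J), in which the stem cell gene Lgr5 drives a green fluorescent protein and an inducible Cre; ages are not given. This knock-in is known to mark only part of the crypts. Each day, strongly fluorescent cells were sorted from the pooled intestines of 4 mice and embedded in Matrigel, with JAG-1 (1 µM) and CHIR99021 (3 µM) in the medium of both groups. The compound was added after 4 h. Treatment lasted 12 h by the sample labels and 16 h by the design text.

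Mucin-type O-glycosylation begins in the Golgi, where an enzyme of the Galnt family places N-acetylgalactosamine (GalNAc) on a serine or threonine. Galactose or N-acetylglucosamine is then added to form a core, which can be branched, lengthened and capped with fucose, sialic acid or sulfate. In the gut these sugars give secreted mucus its gel properties and membrane mucins their negatively charged coat, and they serve bacteria as food and as attachment sites. Several of the listed enzymes act on glycolipids or on N-linked glycans, instead or as well, among them B4galnt1, B3gnt5, Fut8 and St6gal1.

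The 6 libraries held 45682340 to 47905087 read pairs assigned to genes. All 9 stem cell markers were present in every library, the lowest at 17.7 CPM (read pairs per 1000000 counted, scaled between libraries), and Lgr5 lay at 67.2, 64.6 and 53.7 CPM with INT-777 and 72.3, 74.5 and 62.2 CPM with DMSO on days 1, 2 and 3. Of the 9, 4 had a positive and 5 a negative log2 change with INT-777. In a fit with a term for day, 2 passed as higher and 4 as lower (edgeR adjusted p under 0.05). The shares of all genes were 11.1% and 10.3%. Without that term only Smoc2 passed, lower by a log2 change of −0.45 (edgeR adjusted p = 0.0141), against 0.763% of all genes. Gpbar1, which encodes TGR5, had 4, 1 and 4 read pairs with INT-777 and 4, 0 and 5 with DMSO. Markers of other intestinal lineages were present too: Paneth markers summed to 2290 to 3670 CPM with INT-777 and 3480 to 4030 with DMSO, and enterocyte markers to 863 to 1010 CPM with INT-777 and 1210 to 1600 with DMSO. The enterocyte gap lay mostly in the peptidase Anpep, at 265, 260 and 165 CPM with INT-777 and 804, 831 and 549 with DMSO; 9 of the 14 tested enterocyte markers had a negative and 5 a positive log2 change, which include Alpi at 0.79 and Fabp1 at 0.77. Day 3 stood apart. Of 22 goblet cell markers none was at 0 in all libraries. Their summed level was 3230, 3120 and 13100 CPM with INT-777 and 5970, 5890 and 29300 CPM with DMSO. In all, 21 of the 21 tested markers were lower with INT-777 on all 3 days, against 25.3% of all genes. Against 0.763% and 10.3% of all genes called lower, none of these markers passed without a term for day and 18 did with one (edgeR). Among them the gel-forming mucin Muc2 lay at 318, 303 and 556 CPM with INT-777 and 732, 757 and 2480 with DMSO (edgeR adjusted p = 0.28 without and 0.0907 with a term for day), Tff3 at 370, 392 and 1500 with INT-777 and 479, 458 and 2120 with DMSO, Clca1 at 263, 261 and 895 with INT-777 and 459, 446 and 1740 with DMSO, and Zg16 at 147, 158 and 894 with INT-777 and 230, 221 and 1480 with DMSO. The leukocyte gene Ptprc had 3, 4 and 61 read pairs with INT-777 and 0, 0 and 70 with DMSO. It is 1 of 15 immune markers, which summed to 5.66, 6.34 and 11.8 CPM with INT-777 and 5.06, 5.95 and 11.6 with DMSO. Only 3 of the 15 had enough reads to be tested, and none of those differed between days (edgeR adjusted p under 0.05). In bulk libraries, fewer cells of a type and less RNA per cell cannot be told apart.

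With all libraries fitted and no term for day, St3gal4 and St3gal6 rose and Muc4 fell, and the 34 other tested members did not pass (edgeR quasi-likelihood test, two-sided, Benjamini-Hochberg adjusted p under 0.05 over 15998 genes). The 2 members higher stand against 0.688% of all tested genes called higher, and the 1 lower against 0.763% called lower, 1.45% in all. Leaving out INT-777 replicate 1, INT-777 replicate 2, DMSO replicate 1 or DMSO replicate 2 left 0 members called, and 3 were called when either library of day 3 was left out alone. Adding the replicate number, which is the day, as a block called 6 members higher and 15 lower, against 11.1% and 10.3% of all genes. In that fit 56.8% of the tested members passed in either direction, against 21.3% of all genes. The median log2 change was −0.11 over the 37 and 0.00 over all genes tested, and the median absolute log2 change was 0.28 and 0.13. The libraries of a group come from separate pools of mice on separate days, so p-values without the block measure the spread between those pools, and p-values with it the spread of the INT-777 difference over the 3 days.

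For the 3 members that passed without the block, and for Muc13, the member with the highest level per exon length, 1 annotated promoter each is given. Each runs 5′ to 3′ on the gene's strand from 250 bases before to 50 bases after an annotated start (RefSeq, GRCm38.p6): chr16:32735636-32735935 (plus strand) for Muc4, chr16:33793787-33794086 (plus) for Muc13, chr9:35116815-35117114 (minus) for St3gal4 and chr16:58524204-58524503 (minus) for St3gal6. Which start these cells use was not measured. Muc13 and St3gal6 have 2 entries each, of which the 1 nearest the gene start is shown. The St3gal4 window lies inside the gene as annotated (35046576 to 35119268). Capitals mark matches to the motifs searched.
Muc4: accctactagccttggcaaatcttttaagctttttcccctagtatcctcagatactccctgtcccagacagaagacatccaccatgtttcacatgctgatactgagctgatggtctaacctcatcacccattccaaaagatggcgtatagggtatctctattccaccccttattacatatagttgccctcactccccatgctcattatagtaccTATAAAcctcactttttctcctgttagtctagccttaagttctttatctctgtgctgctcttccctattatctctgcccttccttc
Muc13: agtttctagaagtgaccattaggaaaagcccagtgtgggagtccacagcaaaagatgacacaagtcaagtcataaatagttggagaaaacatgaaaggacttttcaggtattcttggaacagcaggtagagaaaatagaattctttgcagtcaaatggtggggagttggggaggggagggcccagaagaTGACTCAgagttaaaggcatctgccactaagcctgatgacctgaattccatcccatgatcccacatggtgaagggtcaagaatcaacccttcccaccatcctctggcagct
St3gal4: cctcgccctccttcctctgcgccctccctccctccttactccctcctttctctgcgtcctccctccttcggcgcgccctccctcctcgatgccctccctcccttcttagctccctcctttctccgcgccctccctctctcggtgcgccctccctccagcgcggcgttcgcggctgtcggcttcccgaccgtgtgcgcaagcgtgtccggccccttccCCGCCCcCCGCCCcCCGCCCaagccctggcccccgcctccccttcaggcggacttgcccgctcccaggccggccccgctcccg
St3gal6: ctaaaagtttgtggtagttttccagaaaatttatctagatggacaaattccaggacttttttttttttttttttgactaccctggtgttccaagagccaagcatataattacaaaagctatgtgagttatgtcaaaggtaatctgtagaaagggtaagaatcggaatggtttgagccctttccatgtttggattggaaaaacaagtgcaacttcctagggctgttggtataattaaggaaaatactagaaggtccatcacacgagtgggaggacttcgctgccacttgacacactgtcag
The motifs, searched on both strands, were GGGCGG (the GC box), TATAAA (the TATA box), TGANTCA (the AP-1 site), TGACG (the CRE half-site) and the NF-kB consensus, and no matches overlapped in these windows. The Muc4 window held 1 TATAAA, beginning 36 bases before the start, as did 13.6% of all 32851 promoters in the table. The Muc13 window held 1 match to TGANTCA, 61 bases before the start, which 7.81% of all promoters had. The St3gal4 window held 3 GC boxes in a row and was 74% G and C, against 43.7% for Muc4, and 35.7% of all promoters held at least 1 GC box. The St3gal6 window, 38.7% G and C, held none of the 5 motifs. TGACG was present in 20.8% and the NF-kB consensus in 8.46% of all promoters. Of the 41 members 29 matched the promoter table, with 1 promoter taken for each, and 18 of those 29 (62.1%) held a GC box. Shares of all promoters count every entry, and a gene can have more than 1, so the sets are unlike. The other motifs were each in few member promoters. TATAAA was in 3 of the 29 (10.3%), TGANTCA in 2 (6.9%), TGACG in 4 (13.8%) and the NF-kB consensus in 1 (3.45%).

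Among the membrane mucins, Muc4 fell. Muc4, a very long transmembrane mucin that binds receptors of the EGF receptor family (chromosome 16, 32735886 to 32782391, GRCm38), lay at 75.7, 70.4 and 77.6 CPM with INT-777 on days 1, 2 and 3 and at 103, 109 and 108 CPM with DMSO. Every INT-777 library was below every DMSO library, and the days were close together within each group. The means were 74.6 ± 3.76 and 107 ± 3.01 CPM (SD, n = 3 each), a log2 change of −0.52 ± 0.05 (SE, edgeR adjusted p = 0.00919) or 1.43-fold lower. Its level did not pass the test between days (edgeR adjusted p = 0.716). Goblet markers were lower with INT-777 too, and their part in the change of Muc4 was not tested. Without INT-777 replicate 1 or 2 or DMSO replicate 1 or 2 the call was lost, and over the single libraries left out the edgeR adjusted p ran from 0.00885 to 0.0813 and the log2 change from −0.55 to −0.48.

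Muc13, the abundant transmembrane mucin of gut epithelium (chromosome 16, 33794037 to 33819934), had the highest level per exon length of all members, 96.7 CPM per kb with INT-777 and 155 with DMSO. By library it lay at 233, 228 and 419 CPM with INT-777 and 353, 352 and 704 CPM with DMSO. It was lower with INT-777 on each day, but the day 3 INT-777 library was above the DMSO libraries of days 1 and 2, so the groups overlapped. The log2 change of −0.68 ± 0.41 did not pass without the block (edgeR adjusted p = 0.479), and with it the value of −0.66 ± 0.04 did (edgeR adjusted p = 6.1e-08). Without the block it was −1.03 when INT-777 replicate 3 was left out and −0.28 when DMSO replicate 3 was. Muc13 was also 1.91-fold higher on day 3 than on the other days (edgeR adjusted p = 1.76e-09), as were goblet markers, and their part in its change was not tested. Muc1 and Muc20, also transmembrane mucins, were near the floor, with at most 0.084 and 0.21 CPM in any library, and were not tested. Muc4 on the opposite strand covers 15.6% of the exon bases of Muc20.

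**Figure D1:**
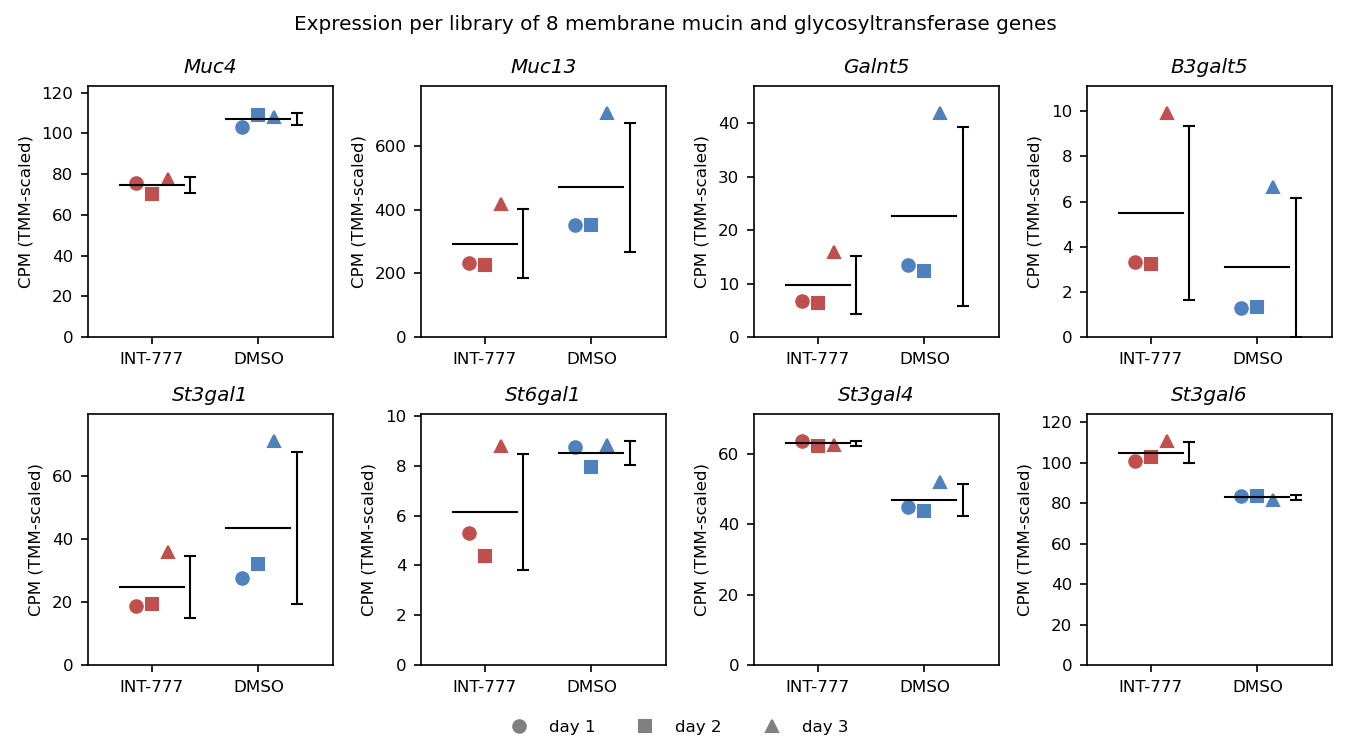
TMM-scaled CPM in every library for the 8 genes that passed without the replicate block, or passed with it at an absolute log2 change of at least 0.5; INT-777 is in red and DMSO in blue, symbols mark the day, lines the mean and bars the SD of 3 libraries. For Muc4, St3gal4 and St3gal6 the groups do not overlap, whereas for Muc13, Galnt5, B3galt5 and St3gal1 the day 3 library is well above the others in both groups.

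Of the 10 initiating enzymes of the Galnt family, none passed without the block, where 1.45% of all genes did. With the block 6 were lower, against 10.3% of all genes. Galnt5 (chromosome 2, 57997884 to 58045860) differed most. It lay at 6.81, 6.36 and 16.0 CPM with INT-777 and 13.4, 12.4 and 41.9 CPM with DMSO. INT-777 was lower on every day, by log2 differences of −0.98, −0.96 and −1.39 on days 1, 2 and 3, and day 3 was far above the other days in both groups. Its log2 change was −1.22 ± 0.68 without the block (edgeR adjusted p = 0.449) and −1.14 ± 0.09 with it (edgeR adjusted p = 5.08e-07), where the 95% interval ran from −1.33 to −0.95. Without the block it was −1.79 when INT-777 replicate 3 was left out and −0.43 when DMSO replicate 3 was. Galnt4, Galnt6, Galnt7, Galnt10 and Galnt12 were lower with the block by smaller amounts, with log2 changes between −0.40 and −0.28. Galnt12 did not pass in DESeq2 with the block (adjusted p = 0.0769), and its log2 change without the block was −0.00 when DMSO replicate 3 was left out. Galnt6 is the member of these whose groups did not overlap, at 110, 111 and 120 CPM with INT-777 and 139, 134 and 178 CPM with DMSO. Galnt7 and Galnt10 prefer peptides that already carry a GalNAc. The difference of each of these 6 was larger on day 3 than on days 1 and 2; for Galnt12 the log2 differences were −0.18, −0.27 and −0.71. Whether the days differ in this was not tested, since a day holds 1 library of each group.

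The widely expressed initiators Galnt1 and Galnt3 had log2 changes of 0.03 each, and with the block their 95% intervals ran from −0.06 to 0.11 and from −0.05 to 0.11. Per exon length, Galnt1 lay among the 6 Galnt genes that were lower, with 26.9 CPM per kb with INT-777 and 26.4 with DMSO. Galnt3 had 34.7 CPM per kb with INT-777, above all 6, and 34.0 with DMSO, below Galnt6 only. Galnt6 had 29.4 with INT-777 and 38.8 with DMSO. Galnt11 had a log2 change of −0.11 ± 0.08 and did not pass in either fit. Galnt2 had 2 to 13 read pairs per library. Of its annotated exon bases 93.6% also lie in other genes, among them the read-through gene Gm20388 on the same strand, which was listed at 0, so its count is uncertain as a measure of its expression.

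Enzymes that form and branch the core moved both ways. C1galt1, which adds galactose to GalNAc, and C1galt1c1, the chaperone that it needs, had log2 changes of −0.05 ± 0.08 and −0.07 ± 0.29 and passed in neither fit. Gcnt1 and Gcnt3, which add the branching N-acetylglucosamine, were higher with the block. Gcnt1, the more general of the pair, had 33.2, 33.1 and 24.3 CPM with INT-777 and 23.8, 24.6 and 16.3 CPM with DMSO, higher with INT-777 on each day (log2 0.49 ± 0.06 with the block, edgeR adjusted p = 3.61e-05; 0.48 ± 0.19 without it, edgeR adjusted p = 0.289). Gcnt3, the mucin-type enzyme of gut epithelium, had 130, 127 and 190 CPM with INT-777 and 110, 106 and 149 CPM with DMSO (log2 0.29 ± 0.04 with the block, edgeR adjusted p = 0.000169; adjusted p = 0.542 without it). Gcnt4, another branching enzyme, was lower with the block (log2 −0.20 ± 0.06, edgeR adjusted p = 0.0259). That call was lost in DESeq2 with the block (adjusted p = 0.0707) and in the edgeR fit with the block without day 1 (adjusted p = 0.0688) or day 2 (adjusted p = 0.068). B3gnt6, which makes an alternative core found in colon mucins, stayed below 1 CPM in every library and passed in neither fit.

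Of the enzymes that lengthen chains, B3galt5 was the exception in direction and size. B3galt5, which adds galactose to N-acetylglucosamine ends (chromosome 16, 96235801 to 96319859), lay at 3.31, 3.23 and 9.93 CPM with INT-777 and 1.30, 1.32 and 6.64 CPM with DMSO. It was higher with INT-777 on all 3 days, with log2 differences of 1.34, 1.28 and 0.58 on days 1, 2 and 3. The fit gave 0.83 ± 0.87 without the block (edgeR adjusted p = 0.695) and 0.96 ± 0.15 with it (edgeR adjusted p = 0.000427). Without the block it was 0.07 when INT-777 replicate 3 was left out and 2.05 when DMSO replicate 3 was. B3gnt5, which starts a class of glycolipid chains, B3gnt7, which acts on lactosamine repeats, and B4galt1, the general galactosyltransferase, were lower with the block, with log2 changes of −0.41 ± 0.10, −0.18 ± 0.06 and −0.22 ± 0.05. In DESeq2 with the block B3gnt5 (adjusted p = 0.0591) and B3gnt7 (adjusted p = 0.128) did not pass, and B3gnt7 also lost its call in each edgeR fit with the block that left out a day (adjusted p of 0.0596 to 0.209). B3gnt3, which extends O-glycan cores, was second in level per exon length (54.3 CPM per kb with INT-777 and 53.3 with DMSO) and had a log2 change of 0.03 ± 0.10.

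The 3 enzymes that add a terminal GalNAc split. B4galnt1, which makes gangliosides, had 148, 150 and 139 CPM with INT-777 and 114, 124 and 122 CPM with DMSO. The groups did not overlap, and the log2 change of 0.28 ± 0.05 missed the threshold without the block (edgeR adjusted p = 0.0596) and passed with it (edgeR adjusted p = 0.000325). Slc26a10 on the opposite strand covers 20.7% of the exon bases of B4galnt1. Its log2 change went the same way, at 0.35 ± 0.16 without the block (edgeR adjusted p = 0.345) and 0.35 ± 0.14 with it (edgeR adjusted p = 0.0804). B4galnt2, which makes the Sd(a) blood group sugar in gut, had 52.5, 50.7 and 56.1 CPM with INT-777 and 63.1, 60.9 and 92.8 CPM with DMSO, and was lower with the block (log2 −0.42 ± 0.09, edgeR adjusted p = 0.0151; adjusted p = 0.263 without it). The log2 change of B4galnt3, which adds GalNAc to N-acetylglucosamine ends, was −0.19 ± 0.09 and passed in neither fit, though its groups did not overlap. In all, groups did not overlap for 8 of the 37 (21.6%), against 24.5% of all genes tested.

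None of the 3 fucosyltransferases passed in either fit. Fut2, which makes the H antigen on mucins, had 2.44, 2.14 and 5.86 CPM with INT-777 and 2.65, 2.43 and 5.61 CPM with DMSO. The 95% interval of its log2 change with the block ran from −0.33 to 0.21. For Fut4, a Lewis-type fucosyltransferase, it ran from −0.09 to 0.22, and for Fut8, which fucosylates the core of N-glycans, from −0.19 to −0.02 (edgeR adjusted p = 0.0675).

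The sialyltransferases held both rises that passed without the block. St3gal4 (chromosome 9, 35046576 to 35119268), which caps galactose on lactosamine chains, lay at 63.8, 62.4 and 62.7 CPM with INT-777 and 45, 43.7 and 52.0 CPM with DMSO. The lowest INT-777 library was above the highest DMSO library. The means were 63.0 ± 0.761 and 46.9 ± 4.46 CPM (SD, n = 3 each), a log2 change of 0.43 ± 0.07 (edgeR adjusted p = 0.0405) or 1.34-fold higher. St3gal6 (chromosome 16, 58468125 to 58524243), which acts on the same kind of chain, lay at 101, 103 and 111 CPM with INT-777 and 83.8, 83.8 and 81.5 CPM with DMSO. Again the groups did not overlap. The log2 change was 0.34 ± 0.05 (edgeR adjusted p = 0.0295), or 1.26-fold, from means of 105 ± 5.23 CPM with INT-777 and 83.0 ± 1.33 CPM with DMSO. Neither gene passed the test between days (edgeR adjusted p = 0.389 and 0.835). St3gal4 kept its call without DMSO replicate 3 and lost it without each of the other 5 libraries in turn (edgeR adjusted p of 0.0064 to 0.198, log2 0.37 to 0.49). St3gal6 lost its call without INT-777 replicate 1 or 2 or DMSO replicate 1 or 2 (edgeR adjusted p of 0.0422 to 0.189, log2 0.29 to 0.37). Dcbld2 on the opposite strand covers 26.0% of the exon bases of St3gal6; its own log2 change was −0.31 ± 0.08 (edgeR adjusted p = 0.117), and with the block it was called lower at −0.32 ± 0.06 (edgeR adjusted p = 0.00129). The antisense gene 4930581F22Rik covers 14.1% of those of St3gal4 and differed by −0.21 ± 0.16 on the log2 scale (edgeR adjusted p = 0.554).

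St3gal1, which sialylates the galactose of the O-glycan core itself (chromosome 15, 67102875 to 67176830), went the other way. It had 18.6, 19.3 and 35.9 CPM with INT-777 and 27.4, 31.9 and 71.1 CPM with DMSO. INT-777 was lower within every day, while its day 3 library was above the DMSO libraries of days 1 and 2. The log2 change was −0.82 ± 0.49 without the block (edgeR adjusted p = 0.482) and −0.77 ± 0.07 with it (edgeR adjusted p = 4.33e-06). Without the block it was −1.20 when INT-777 replicate 3 was left out and −0.28 when DMSO replicate 3 was. St6gal1, which sialylates N-glycans, had 5.30, 4.37 and 8.79 CPM with INT-777 and 8.77, 7.97 and 8.84 CPM with DMSO. It was lower on days 1 and 2, and the day 3 libraries were nearly equal; the log2 change with the block was −0.51 ± 0.15 (edgeR adjusted p = 0.0318), and −0.47 ± 0.25 without it (edgeR adjusted p = 0.395). With the block it lost its call without day 2 (edgeR adjusted p = 0.0645). St3gal3, St6galnac2 and St6galnac6 passed in neither fit, with log2 changes of −0.18, −0.10 and 0.12. A second ID with the St6galnac2 symbol lies within the first, and read pairs that overlap both are counted to neither.

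St6galnac1, which sialylates the initial GalNAc, and Chst5, a sulfotransferase, were listed at 0 read pairs in all 6 libraries. A count of 0 allows up to 3 read pairs per library, or 0.0626 to 0.0657 CPM, for counting error only. These values do not tell a gene that was not transcribed from one to which the counting assigned no reads, so the 0 is not read here as absence of expression. Chst4, which sulfates N-acetylglucosamine, had 24.8, 24.3 and 52.3 CPM with INT-777 and 24.3, 25.0 and 47.5 CPM with DMSO, nearly equal within each day. Its log2 change was 0.05 ± 0.06 with the block, with a 95% interval from −0.07 to 0.17. Over the 14 members that passed in neither fit and had more reads than Galnt2 and B3gnt6, the intervals with the block lay between −0.36 and 0.48.

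**Figure D2:**
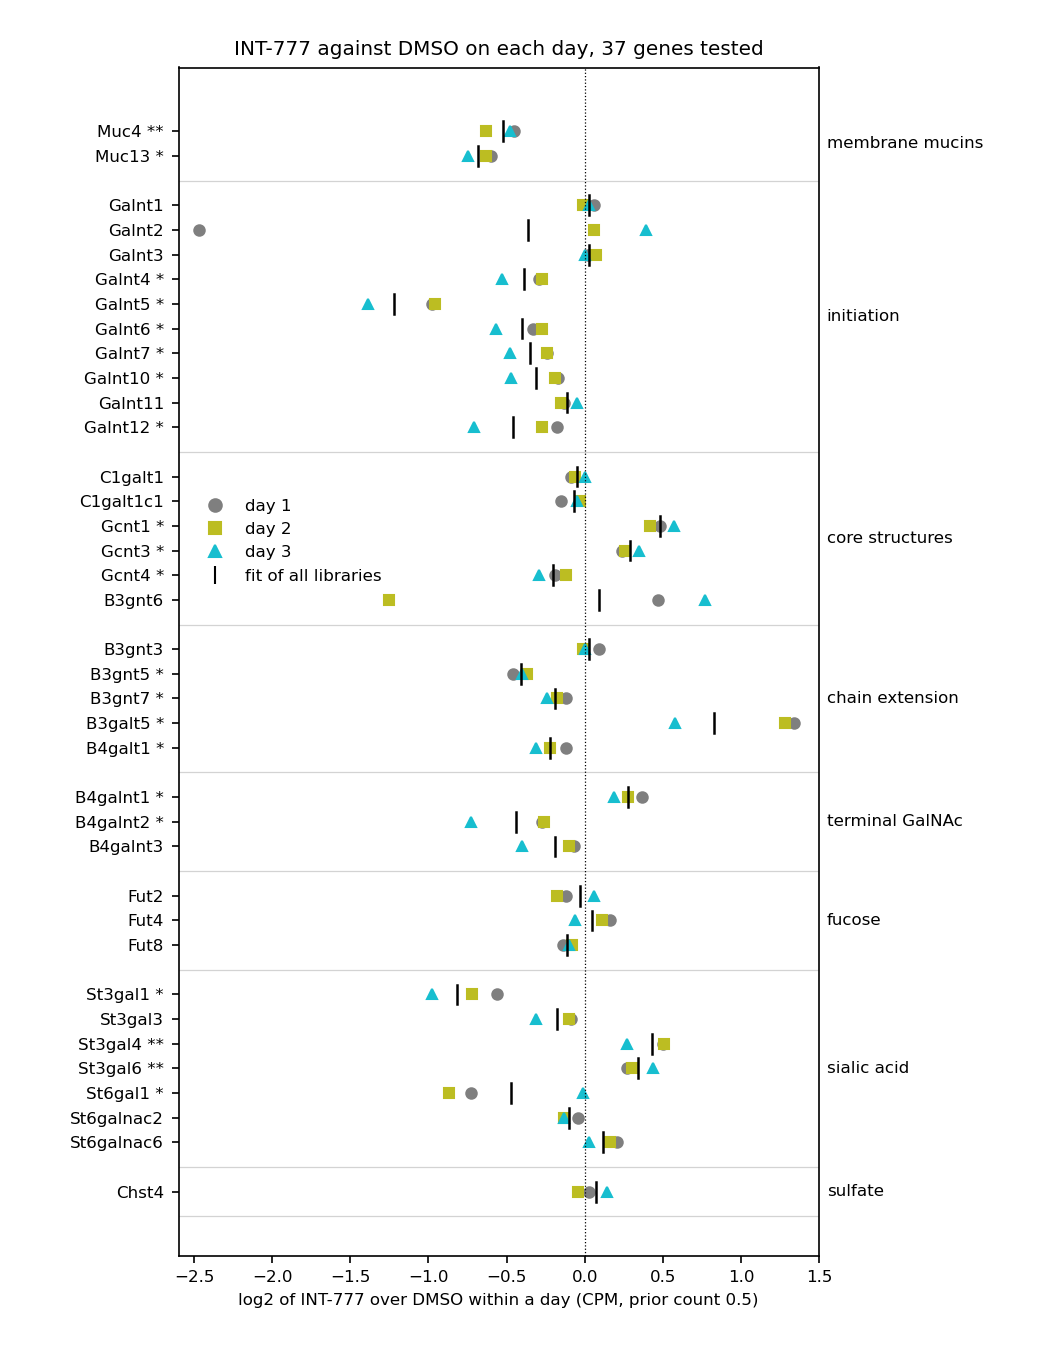
Log2 of INT-777 over DMSO within each day for the 37 tested genes, by role, with the fit of all libraries without the block as a black bar; 2 asterisks mark genes that passed without the replicate block and 1 asterisk those that passed only with it. The 6 Galnt genes with an asterisk lie left of 0 on all 3 days, and St3gal4, St3gal6, Gcnt1, Gcnt3, B3galt5 and B4galnt1 lie right of 0 on all 3 days.

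All 21 members called with the block moved the same way on all 3 days, which that test favours, though St6gal1 differed by only −0.01 (log2) on day 3. Over the 37 tested, 81.1% did, 8 higher and 22 lower, against 52.0% of all genes, 26.8% higher and 25.3% lower. The sum over the 41 members was 2286, 2264 and 2915 CPM with INT-777 and 2466, 2478 and 3516 CPM with DMSO. By role, the initiating enzymes summed to 723, 717 and 924 CPM with INT-777 and 804, 797 and 1190 CPM with DMSO, whereas the core enzymes summed to 364, 364 and 464 CPM with INT-777 and 352, 344 and 423 CPM with DMSO. Sums were thus lower with INT-777 on every day for initiation and higher on every day for the core. The core sum does not stand for each core gene. Of the 6, 2 (Gcnt1 and Gcnt3) were higher on all 3 days and 3 (C1galt1, C1galt1c1 and Gcnt4) lower. Sums of the other roles are not given here.

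**Figure D3:**
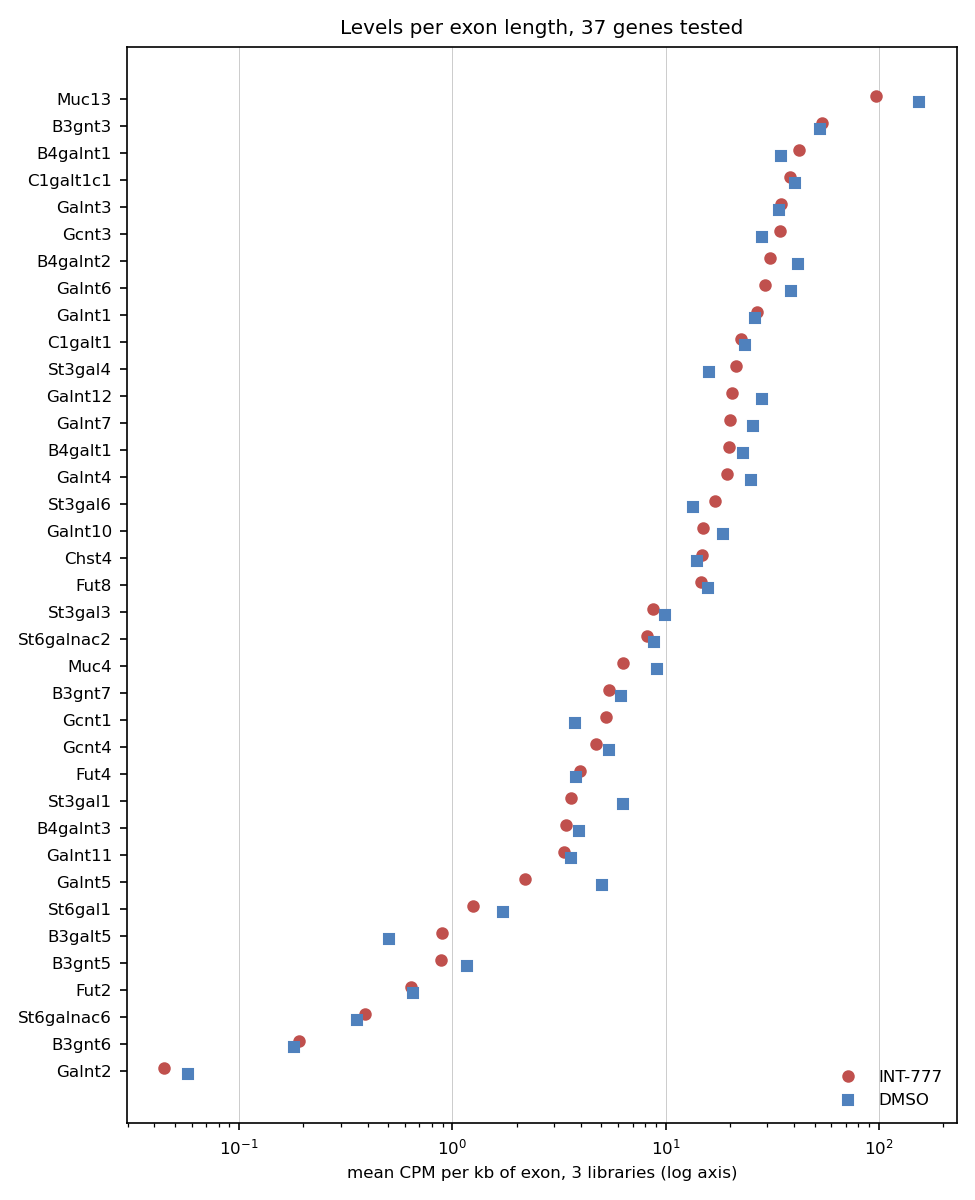
Mean CPM per kb of annotated exon in 3 INT-777 (red circles) and 3 DMSO libraries (blue squares) for the 37 tested genes, on a log axis, ordered by the INT-777 mean. Muc13 is highest at 96.7 (INT-777) and 155 (DMSO), and Galnt2, whose count is uncertain, is lowest.

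More members passed between days than with INT-777. Of the 37 tested, 26 (70.3%) differed between days in a model with treatment (edgeR F-test of the day terms, adjusted p under 0.05), against 20.5% of all genes. Day 3 was higher than the mean of days 1 and 2 for 24 and lower for 2, against 11.9% and 8.61% of all genes. The median log2 difference of day 3 was 0.36 over the members and 0.01 over all genes. The largest differences were those of B3galt5 (log2 1.92, edgeR adjusted p = 7e-07), Galnt5 (1.51, adjusted p = 2.43e-08), Fut2 (1.25, adjusted p = 1.17e-05), St3gal1 (1.11, adjusted p = 1.67e-07) and Chst4 (1.02, adjusted p = 1.41e-08). The 2 lower on day 3 were the branching enzymes Gcnt1 and Gcnt4. Goblet markers moved with these values, with a median log2 difference of 1.86 on day 3 and 20 of 21 higher, as did enteroendocrine markers, with a sum of 562, 571 and 2130 CPM with INT-777 and 605, 617 and 2710 CPM with DMSO. Tuft markers rose too, with a median of 0.69. Stem, Paneth and enterocyte markers went the other way, with medians of −0.27, −0.51 and −0.15. Lower on day 3 were 6 of 9 stem, 4 of 10 Paneth and 6 of 14 enterocyte markers, and higher were 0, 1 and 2. RNA integrity numbers were 9.2, 9.2 and 9.0 with INT-777 and 9.3, 9.6 and 8.7 with DMSO. The part of cell makeup, RNA quality or other differences between days was not tested.

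Members higher on day 3 were more often lower than higher with INT-777 in the fit with the block, as were the tested members as a whole. Of the 24, 11 were lower with the block and 2 higher (Gcnt3 and B3galt5), against 10.3% and 11.1% of all genes. The other 11, among them Fut2 and Chst4, passed in neither direction. Among all tested members 40.5% were lower and 16.2% higher with the block. The shares among all genes higher on day 3 were not taken. Whether a higher level on day 3 goes with the direction of the INT-777 difference was therefore not tested. Of the 11 members that did not pass between days, St3gal4, St3gal6 and B4galnt1 were higher and Muc4, B4galnt2 and St6gal1 lower with the block. Both comparisons use the same 6 libraries.

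**Figure D4:**
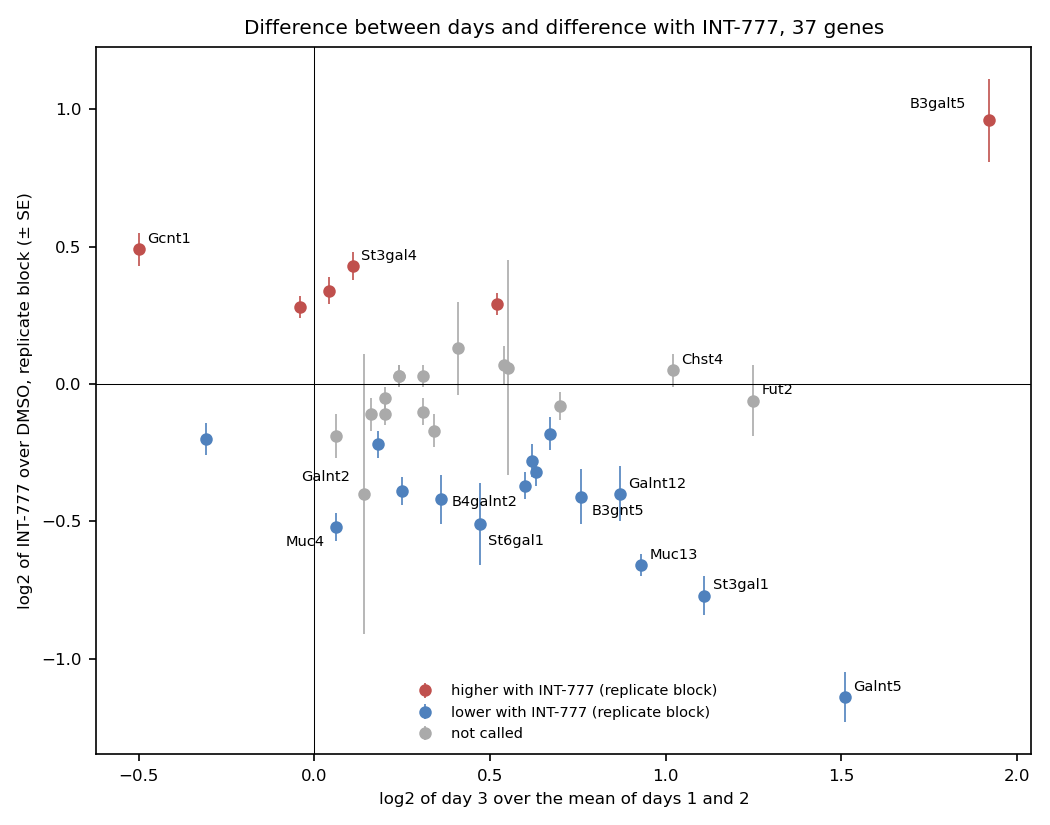
Each point is 1 of the 37 tested genes, with the log2 of day 3 over the mean of days 1 and 2 on the horizontal axis and the log2 of INT-777 over DMSO from the fit with the replicate block, with its SE, on the vertical axis; colours mark calls with the block. Galnt5, St3gal1 and Muc13 lie at the lower right, B3galt5 at the upper right, and Muc4, St3gal4 and St3gal6 near 0 on the horizontal axis.

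Other genes of the pathway were counted in the same fits. Of 89 matched, 59 were tested. Without the block 2 were higher and none lower, against 0.688% and 0.763% of all genes. With it 7 were higher and 10 lower (28.8%), against 11.1% and 10.3% of all genes (21.3% in all). Those that rose without the block were Uap1l1, which is related to the enzyme that makes UDP-GlcNAc (73.8, 73.4 and 73.1 CPM with INT-777 and 61.8, 59.4 and 61.4 CPM with DMSO; log2 0.27 ± 0.05, edgeR adjusted p = 0.0389), and the galactosyltransferase B4galt2 (12.4, 12.2 and 12.7 CPM with INT-777 and 9.64, 9.14 and 8.58 CPM with DMSO; log2 0.45 ± 0.08, edgeR adjusted p = 0.0488). Uap1l1 kept its call without DMSO replicate 3 and lost it without each of the other 5 libraries in turn (edgeR adjusted p of 0.0449 to 0.254). B4galt2 lost its call when any single library was left out (edgeR adjusted p of 0.0641 to 0.249), with RLE size factors (adjusted p = 0.0543) and without scaling (adjusted p = 0.0556). Galactokinase Galk1 (log2 0.25 ± 0.05, edgeR adjusted p = 0.0829) and the GDP-fucose transporter Slc35c1 (0.20 ± 0.05, adjusted p = 0.11) passed with the block alone. So did the membrane mucin Muc3 (0.55 ± 0.14, adjusted p = 0.136), with 35.8, 32.3 and 34.8 CPM with INT-777 and 20.6, 20.3 and 29.3 CPM with DMSO. The other tested gene of that list, Muc3a, named after its values were seen, went the other way, with 10.5, 9.19 and 18.0 CPM with INT-777 and 17.3, 18.2 and 54.5 CPM with DMSO (log2 −1.26 ± 0.59, edgeR adjusted p = 0.378; −1.14 ± 0.18 with the block, edgeR adjusted p = 0.0146). Among 28 genes that supply or carry nucleotide sugars and sulfate donors, 3 were higher and 7 lower with the block (35.7%, against 21.3% of all genes). Their median log2 change without it was −0.06.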

How the data were processed

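The members and gene lists were chosen with earlier results of these data known. RNA was measured in 6 bulk libraries, sequenced as read pairs of 100 nt. Per the submitters' processing notes, STAR 2.73a, FastQC and edgeR 3.24.3 were used with GRCm38 (mm10); for the annotation, these sources give no version. The authors deposited raw counts, whole numbers of read pairs for each gene, not normalised. The unstranded column was used, because the strand columns held near-equal shares, so reads shared by genes on opposite strands cannot be told apart; 19 members have exons that overlap another gene. Lines that name no gene (unmapped, multimapping, no feature, ambiguous) stayed out; 74.5 to 75.6% of pairs were assigned. Of 54838 IDs 54809 matched GENCODE M21. Symbols on more than 1 ID took the ID that RefSeq pairs with them, or else the first.

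Genes were filtered with filterByExpr (15998 left), scaled by TMM and tested with the edgeR 4.0.16 quasi-likelihood test (robust, limma 3.58.1, R 4.3.3), with p-values adjusted over all genes. The SE was taken as |log2 change| divided by sqrt(F). CPM is counts over the TMM-scaled total of tested genes. Alternatives were the replicate block, RLE or no scaling, DESeq2 1.42.0, other filters and leaving out libraries or days. Members that passed without the block, or with it at an absolute log2 change of at least 0.5, are given by library. Other pathway genes are named if called, or among the 5 of smallest p. Replicate numbers mark a shared day per the labels; deviations around the group means had same-day correlations of 0.301, 0.337 and 0.605. INT-777 replicate 1 correlated at 0.303 with DMSO replicate 2. Labels give separate pools of mice per day. The fits were tested on simulated counts. A minimum recovery of changed genes was required there, but not of the fit without the block on counts with day effects. Figures were made with Python 3.11.15 and matplotlib 3.10.9.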

Additional observations from a re-analysis of the deposited data

Results flagged for a closer look

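B3gnt6, the enzyme of an alternative O-glycan core, moved in different directions on different days. Its log2 difference of INT-777 minus DMSO was −1.25 on day 2 and 0.47 and 0.77 on days 1 and 3. The difference between days was not tested, and each value rests on the few read pairs of 2 libraries, at 0.424, 0.231 and 0.706 CPM with INT-777 and 0.304, 0.564 and 0.410 CPM with DMSO.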

How the results depend on the processing

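The number of members called moved from 3 to 21 with the replicate block, 5 with DESeq2 and 17 with DESeq2 and the block. Leaving out libraries gave 0 to 21: it was 0 without INT-777 replicate 1, INT-777 replicate 2, DMSO replicate 1 or DMSO replicate 2, where 8 to 19 of all genes were called and 5 to 8 members had an unadjusted p under 0.05, and 0 without both libraries of day 1 or of day 2. It was 3 without INT-777 replicate 3 or DMSO replicate 3 (with St6gal1 in place of St3gal4 in the first case), and 21 without both libraries of day 3. With the block it was 19, 18 and 21 without days 1, 2 and 3. Muc4, St3gal4 and St3gal6 kept their direction in every fit, with adjusted p of 0.00885 to 0.0813, 0.0064 to 0.198 and 0.0422 to 0.189 when single libraries were left out. The number of other pathway genes called moved from 2 to 17 with the block, 1 with RLE size factors, 1 without scaling, 5 with DESeq2, and 0 to 17 when libraries were left out. The number of members that differ between days stayed between 23 and 28. The cause of these moves was not tested, except that fits without libraries hold fewer samples.

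Leaving out libraries turned the sign of 12 members, none of them called there: B3gnt3 (−0.06 to 0.11), B3gnt6 (−0.41 to 0.64), B3gnt7 (−0.44 to 0.08), C1galt1c1 (−0.36 to 0.18), Chst4 (−0.40 to 0.44; −0.01 with the block without day 3), Fut2 (−0.65 to 0.44), Fut4 (−0.12 to 0.29), Galnt1 (−0.09 to 0.12), Galnt2 (−0.82 to 0.22; −0.78 without day 3), Galnt3 (−0.06 to 0.11), St6galnac2 (−0.21 to 0.00) and St6galnac6 (−0.00 to 0.30), as log2 changes. Other scalings and filters turned no member. Values under 1 CPM (B3gnt6, Galnt2) are limited by depth.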
